A study of Mus musculus with 3 samples.

Results

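Chemokines and their receptors form the gene family described here, followed through midbrain RNA of newborn mice. Its members were taken by gene symbol alone: Ccl, Cxcl, Cx3cl1 and Xcl1 ligands, Ccr, Cxcr and Xcr1 receptors, the atypical receptors Ackr1 to Ackr4, and Ccrl2. The symbol rule used no measured value, though it was set with earlier results of these data known. This gave 60 of the 49585 genes listed, 38 ligands and 22 receptors. Cx3cr1, the receptor of Cx3cl1, and the platelet chemokine Pf4 fall outside the symbol rule and are given beside the members.

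The series held 3 libraries of total RNA, all from C57BL/6 mice at postnatal day 3. One library came from a wild-type (WT) mouse brain, and 2 came from mice of the genotype labelled FGR. The labels do not spell out FGR or name an allele, a driver line or a treatment, so the term is used as given. The gene Fgr, a Src-family kinase of myeloid cells, was seen 6 times in WT, 3 times in FGR replicate 1 and 4 times in FGR replicate 2 and could not be tested. The labels name mid-brain as the source and do not say whether the FGR libraries came from separate animals. The p-values therefore rest on the spread between the 2 FGR libraries, which may be technical, moderated over all genes.

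Chemokines are small secreted proteins that guide moving cells along gradients through G-protein-coupled receptors. Inflammatory members recruit leukocytes, whereas homeostatic members place cells during development and in resting tissue. In the brain, neuronal Cx3cl1 (fractalkine) signals to Cx3cr1 on microglia, and Cxcl12 acts through Cxcr4 to guide migrating neurons and progenitors. Atypical receptors bind chemokines without coupling to G proteins and clear or transport them.

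The libraries held 52874311 (WT), 58444481 (FGR replicate 1) and 46240262 (FGR replicate 2) counts, of which the 60 members took 0.0252%, 0.0226% and 0.0230%. Of the members' counts, 58.3% to 60.6% belonged to Cx3cl1 and Ccl27a. Levels are given in CPM, counts scaled to a common library size, after TMM correction for library composition, and each pair of FGR values is in the order replicate 1, replicate 2. Midbrain markers were present in all libraries, with a summed level of 168 CPM in WT against 195 and 183 CPM in FGR. Of these 8 markers, 4 were called higher and 1 lower in FGR, against 1.66% and 2.59% of all tested genes. Their log2 fold changes ran from -1.25 to 1.15. Summed hypothalamic and ventral forebrain markers stood at 47.8 CPM in WT against 3.62 and 3.92 CPM in FGR, and 8 of 8 were called lower. Summed hindbrain markers stood at 3.34 CPM in WT against 42.7 and 35.9 CPM in FGR, and 5 of 5 were called higher. A difference between genotypes and a difference in the tissue taken therefore cannot be told apart here. In bulk tissue, fewer cells of a type and less RNA per cell cannot be told apart either.

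Several members on chromosome 4 have near-identical copies, and how reads from them were counted bears on their values. Stretches of their coding sequences that hold every differing position are given 5′ to 3′, with capitals at those positions. They are from GENCODE M21 on GRCm38, and bases are counted from the start codon. Ccl27a and Ccl27b encode the skin-homing ligand of Ccr10, and Gm13306 is a predicted gene with the same reading frame. The Ccl27a and Ccl27b frames are 363 bases long and differ at 3 positions, and the Gm13306 frame differs from that of Ccl27b at 0. Ccl27a lies at chr4:41769498-41770190 on the minus strand, Ccl27b at chr4:42655285-42655977 and Gm13306 at chr4:42158126-42158818, both on the plus strand. Bases 152 to 363 of the frame are printed.
Ccl27a: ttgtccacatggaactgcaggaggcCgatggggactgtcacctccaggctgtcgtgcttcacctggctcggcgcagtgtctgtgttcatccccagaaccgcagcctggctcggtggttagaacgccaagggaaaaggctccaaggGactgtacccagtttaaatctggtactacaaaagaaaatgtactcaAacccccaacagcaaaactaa
Ccl27b: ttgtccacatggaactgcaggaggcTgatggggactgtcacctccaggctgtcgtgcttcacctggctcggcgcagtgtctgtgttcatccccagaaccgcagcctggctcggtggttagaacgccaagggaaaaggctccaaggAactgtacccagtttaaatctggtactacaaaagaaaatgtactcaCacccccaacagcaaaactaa

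Ccl21a and Ccl21b encode the Ccr7 ligand made by lymphatic endothelium and lymphoid stroma. Their coding sequences of 402 bases differ at 2 positions and lie at chr4:42773253-42773918 on the minus strand and chr4:42255767-42256432 on the plus strand. Bases 59 to 219 are printed.
Ccl21a: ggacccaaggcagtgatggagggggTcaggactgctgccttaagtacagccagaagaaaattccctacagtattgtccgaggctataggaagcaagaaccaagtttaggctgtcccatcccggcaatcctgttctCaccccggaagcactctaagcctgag
Ccl21b: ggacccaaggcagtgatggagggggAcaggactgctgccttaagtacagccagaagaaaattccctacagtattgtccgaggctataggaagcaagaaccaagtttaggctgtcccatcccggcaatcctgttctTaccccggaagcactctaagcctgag
Stretches of 50 bases from member transcripts were looked up in all other annotated transcripts. For Ccl21b, 353 of 353 such stretches occurred in another gene. The share was 98.1% for Ccl27b, 71.6% for Ccl21a, 52.0% for Ccl19 and 45.0% for Ccl27a. Values of these genes are therefore uncertain, and sums over copies are given beside them.

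Among the members, 2 ligands stood highest by assigned counts. Values of Ccl27a and Ackr1 may hold reads of other genes or of a second reading frame, as described below, which was not tested. Their places in the order are uncertain to that extent. Per kilobase of exon, the mean level over the 3 libraries was 22.5 CPM for Cx3cl1 and 22.0 CPM for Ccl27a. Ackr1 followed at 10.4 CPM per kilobase, Cxcl14 at 5.67, Ccl27b at 3.85, Cxcr4 at 3.36 and Cxcl12 at 2.47. Ccl25 (1.77), Ackr3 (1.64), Ccl21b and Ccl28 (1.29) came next and were the remaining members above 1 CPM per kilobase. Along this order the ranges of neighbours over the libraries overlapped, except between Ccl27a and Ackr1, Ackr1 and Cxcl14, Cxcl14 and Ccl27b, and Cxcl12 and Ccl25. Each inflammatory CC ligand and each ligand of Cxcr2 or Cxcr3 had a mean under 1 CPM per kilobase.

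**Figure D1:**
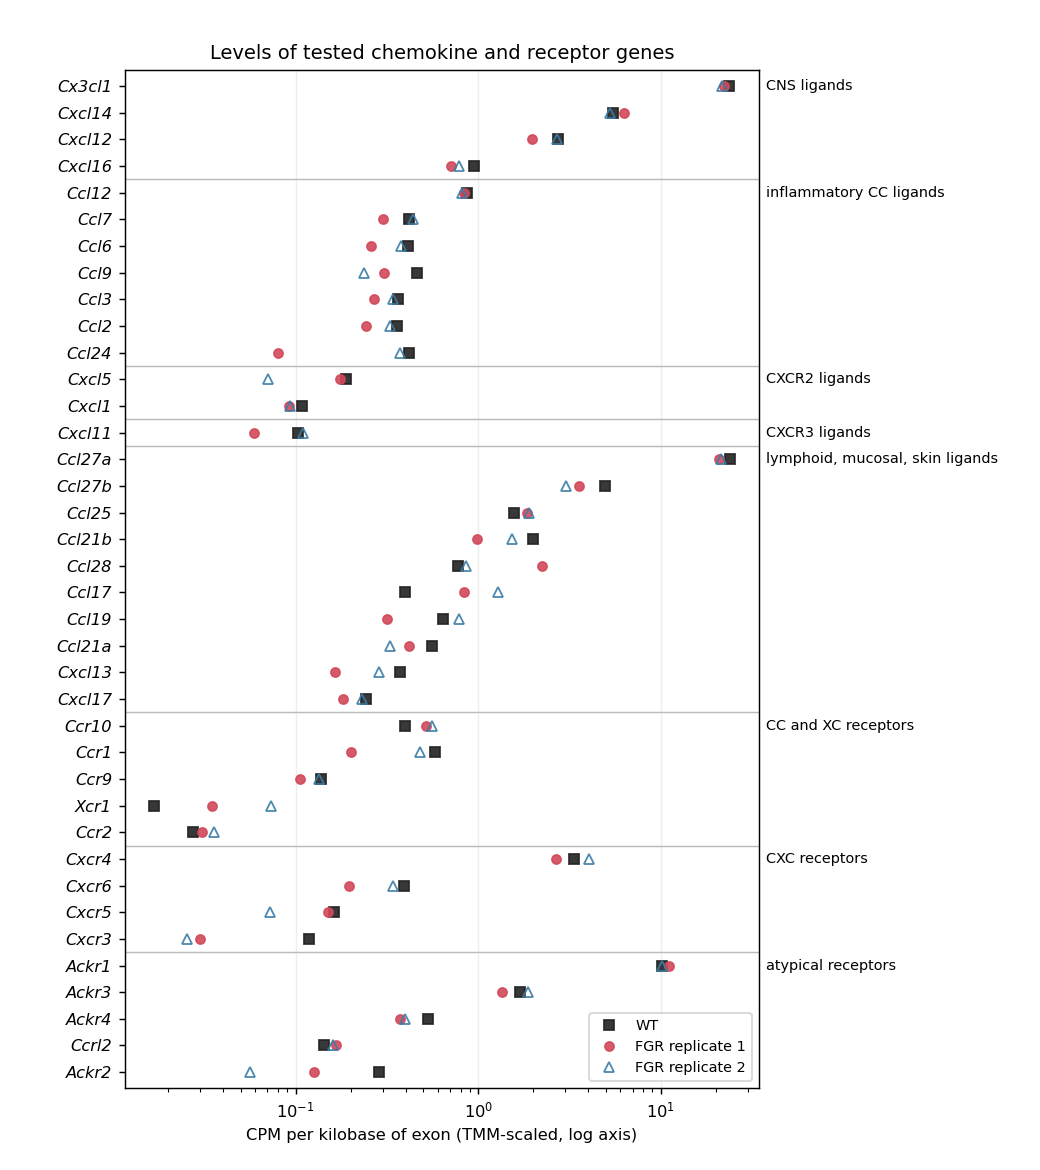
Level of tested chemokine and receptor genes in CPM per kilobase of exon (log axis), grouped by role and ordered by mean within a role. Black squares are the WT library, red circles FGR replicate 1 and open blue triangles FGR replicate 2. Cx3cl1 and Ccl27a stand above 20 CPM per kilobase in every library, and most members lie under 1.

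FGR was compared with WT by edgeR's quasi-likelihood test with Benjamini-Hochberg adjustment over 25561 genes, at an adjusted p threshold of 0.05. Of the 60 members, 39 had enough counts to be tested, 24 ligands and 15 receptors. None of the 39 was called in either direction, against 4.25% of all tested genes (1.66% higher and 2.59% lower). An unadjusted p under 0.05 was found for 6 of the 39 members (15.4%), a share below the 18.3% of all tested genes. They were Ackr2, Ccl27a, Ccl9 and Ccl27b with lower values in FGR and Ccl28 and Ccl17 with higher values. No member was called by limma-voom or DESeq2 either, with 7 and 0 members at an unadjusted p under 0.05, although DESeq2 gave no adjusted p for 45 of its 54 members.

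Both FGR libraries lay below WT for 25 of the 39 tested members, against 38.2% of all tested genes. Both lay above WT for 7 members, against 38.5% of all tested genes. The median log2 fold change was -0.26 over the 39 members and 0.01 over all tested genes. It was -0.13 without FGR replicate 1 and -0.42 without FGR replicate 2. The 25 include Cxcr3, Cxcl1 and Cxcl17, which passed the filter through the WT library alone, so their direction followed from the filter. Among the 7, Xcr1 passed through FGR replicate 2 alone. The filter thus placed that library above WT, but not FGR replicate 1. Of the 31 members that met the filter in all libraries, both FGR libraries lay below WT for 18 and above it for 6, with a median log2 fold change of -0.24. Intervals of 11 of the 39 members lay within a 2-fold change either way, and for the others a change of 2-fold or more lay within the interval.

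**Figure D2:**
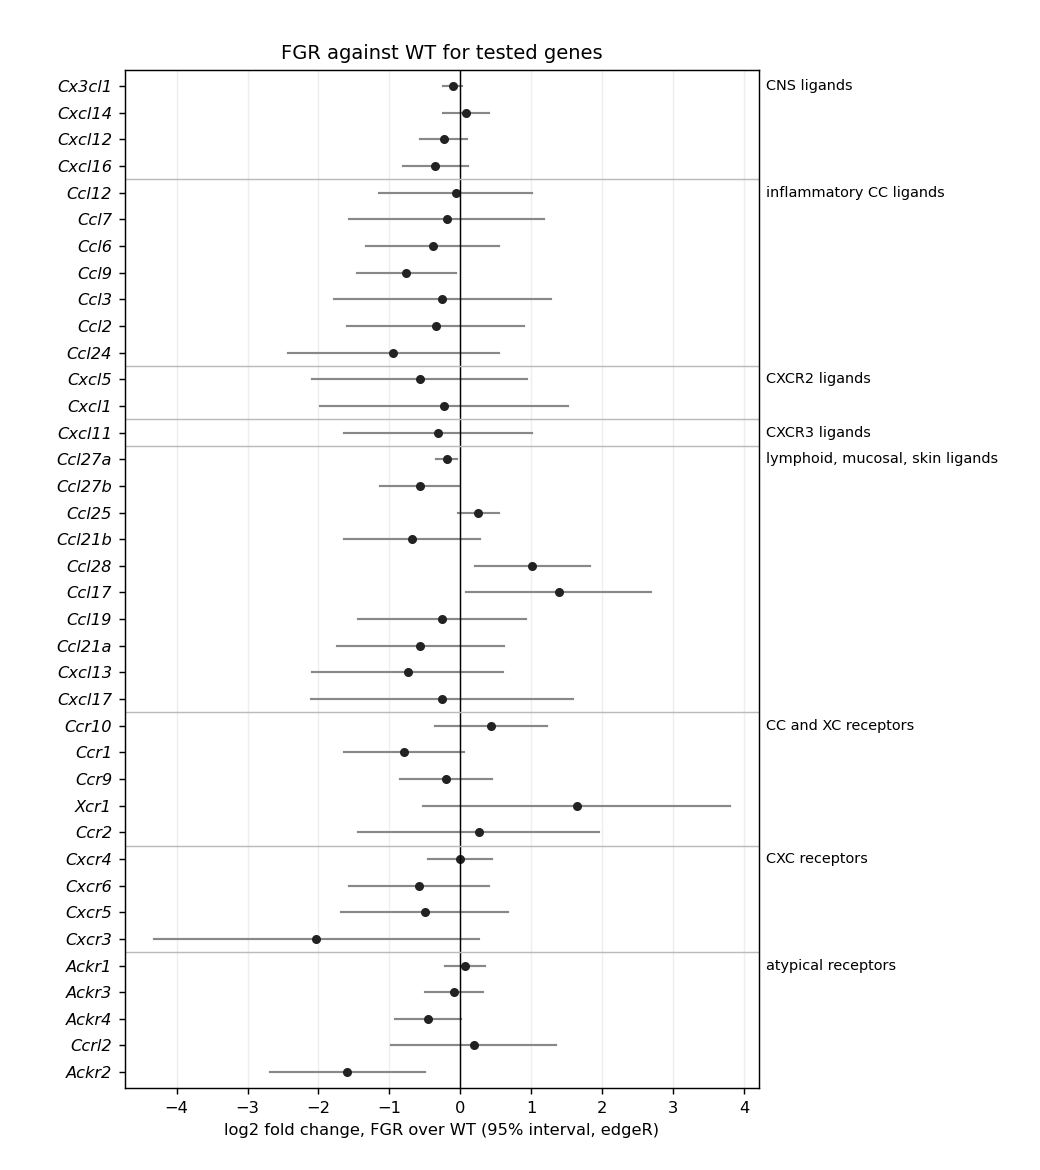
Log2 fold change of FGR over WT for tested members, in the role order of the plot of levels. Points are edgeR estimates and lines are 95% intervals that borrow the spread from all genes. Abundant members such as Cx3cl1 have short intervals near 0, and the intervals of Ackr2, Ccl27a, Ccl27b, Ccl9, Ccl28 and Ccl17 do not reach 0 although none passed the adjusted threshold.

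Among the ligands of the resting brain, Cx3cl1 is the membrane-bound neuronal chemokine that is shed to reach microglia. It stood at 92.9 CPM in WT against 87.1 and 84.9 CPM in FGR. Both FGR libraries were slightly below WT, with a log2 fold change of -0.11 ± 0.06 (SE, adjusted p = 0.401). Its interval ran from -0.25 to 0.03, a narrow range around 0. The receptor Cx3cr1, a microglial gene, stood at 19.4 CPM in WT against 14.3 and 16.2 CPM in FGR. Its log2 fold change of -0.35 ± 0.13 did not pass the test (adjusted p = 0.156).

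Cxcl12, made by meninges, vessels and neurons, stood at 22.5 CPM in WT against 16.0 and 22.1 CPM in FGR. Only FGR replicate 1 was clearly lower, and the log2 fold change of -0.24 ± 0.16 did not pass the test (adjusted p = 0.468). It was -0.02 without FGR replicate 1 and -0.49 without FGR replicate 2. Its signalling receptor Cxcr4 stood at 6.06 CPM in WT against 4.81 and 7.35 CPM in FGR, and its log2 fold change was -0.0017 ± 0.21 (adjusted p = 0.998). Its FGR values lay on either side of WT, and they differed 1.53-fold from each other. Ackr3, the scavenging receptor of Cxcl12, stood at 5.70 CPM in WT against 4.52 and 6.23 CPM in FGR, with a log2 fold change of -0.09 ± 0.19 (adjusted p = 0.860). All 3 genes of this axis were lower in FGR replicate 1 than in FGR replicate 2.

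Cxcl14, a homeostatic chemokine of neurons and epithelia, stood at 9.96 CPM in WT against 11.5 and 9.56 CPM in FGR. WT lay between the FGR libraries, and the log2 fold change was 0.08 ± 0.15 (adjusted p = 0.841). Cxcl16, the transmembrane ligand of Cxcr6, stood at 2.88 CPM in WT against 2.16 and 2.36 CPM in FGR. Each FGR library was lower, but the log2 fold change of -0.35 ± 0.22 did not pass the test (adjusted p = 0.424). In the annotation, 18.3% of the exon bases of Cxcl16 overlap Zmynd15 on the opposite strand. Zmynd15 had 69 counts in WT and 57 and 64 in FGR, and its part in the Cxcl16 values was not tested. Cxcr6, a receptor of T cells and natural killer cells, had 41 counts in WT and 22 and 30 in FGR (adjusted p = 0.564).

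Ccl27a stood at 57.1 CPM in WT against 49.3 and 50.6 CPM in FGR. Both FGR libraries lay below the single WT library, as for 38.2% of all tested genes. The log2 fold change was -0.19 ± 0.07, with an adjusted p of 0.132. Ccl27b had 113 counts (2.10 CPM) in WT and 88 (1.52 CPM) and 59 (1.29 CPM) in FGR. It too was lower in both, with a log2 fold change of -0.57 ± 0.26 and an adjusted p of 0.254. The symbol rule does not reach their copy Gm13306, which was singled out after its values were seen. Gm13306 had 780 counts in WT and 492 and 361 in FGR, or 14.5 CPM against 8.48 and 7.90 CPM. It fell, with a log2 fold change of -0.82 ± 0.14 and an adjusted p of 0.00400. Per 100 counts of Ccl27a, Gm13306 had 25.4 in WT and 17.2 and 15.6 in FGR.

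The Ccl27a gene model is broad: of its 11 coding transcripts, 5 end as the chemokine frame shown above and 3 end in a second frame of 264 bases. Gm20878 carries 75.3% of the 50-base stretches of the second frame and 0 of those of the chemokine frame. Gm13306 also carries 75.3% of those of the second frame, with 62.7% of those of the chemokine frame. Counts of Ccl27a and Gm13306 may therefore hold reads of either frame, which was not tested. Summed over Ccl27a, Ccl27b and Gm13306, the genes that carry the chemokine frame had 3969 counts in WT and 3438 and 2733 in FGR. This sum, added after the data had been seen, fell by 0.31 ± 0.06 on the log2 scale (adjusted p = 0.0125). With Gm20878 included, the sum of 4840 counts in WT and 4182 and 3373 in FGR fell by 0.30 ± 0.06 (adjusted p = 0.0143). DESeq2 called neither sum, with adjusted p-values of 0.150 and 0.127. Whether a read shared by copies was counted at each, at one or at none is not given in the sources used here, and a read counted at each copy would enter these sums repeatedly.

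**Figure D3:**
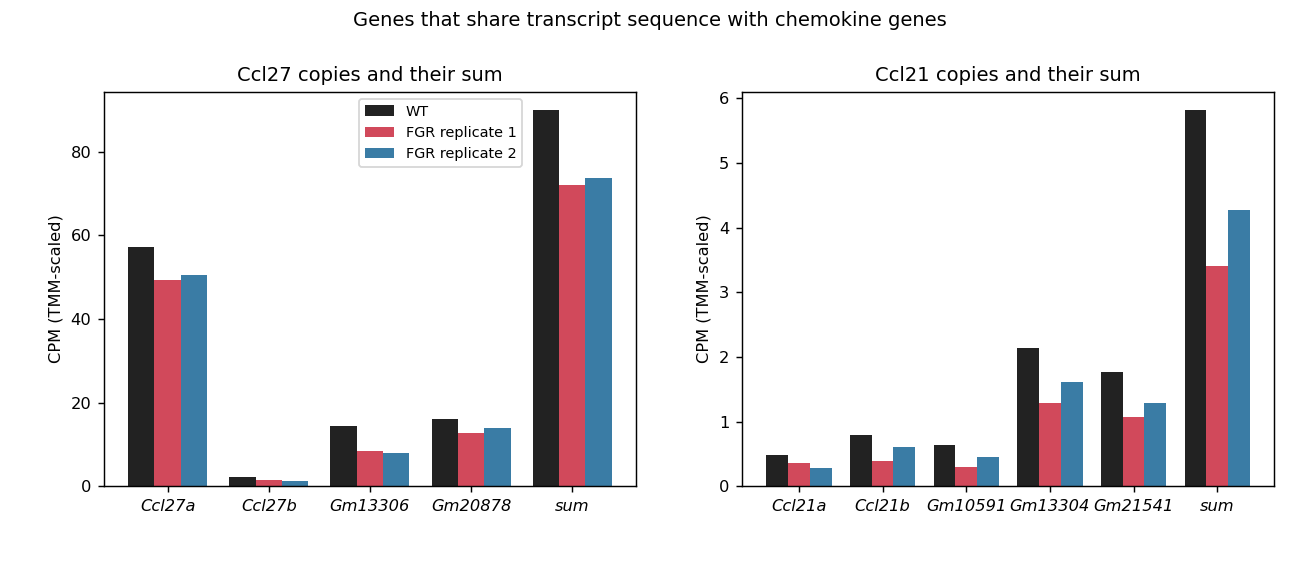
Level in CPM of genes that share transcript sequence with Ccl27a and Ccl27b (left) or with Ccl21a and Ccl21b (right), with the sum of each set at the right of its panel. Bars are single libraries: black for WT, red for FGR replicate 1 and blue for FGR replicate 2. The WT bar is the tallest for each gene and for both sums.

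Ccr10, the receptor shared by Ccl27 and Ccl28, had 37 counts in WT and 52 and 44 in FGR. The FGR libraries were both higher, with a log2 fold change of 0.43 ± 0.37 (adjusted p = 0.598). Ccl28, the mucosal ligand of this receptor, had 155 counts (2.88 CPM) in WT and 482 (8.31 CPM) and 147 (3.22 CPM) in FGR. FGR replicate 1 alone was clearly high and stood 2.58-fold above FGR replicate 2. The log2 fold change of 1.02 ± 0.37 did not pass the test (adjusted p = 0.155), and it was 0.16 without FGR replicate 1 and 1.53 without FGR replicate 2. With no filter on low counts, Ccl28 passed at an adjusted p of 1.09e-05, in a fit that pooled the spread over all genes.

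Ccl25 guides developing T cells and gut-homing cells through Ccr9. It stood at 11.7 CPM in WT against 13.7 and 14.1 CPM in FGR. Both FGR libraries were higher and close to each other, and the log2 fold change was 0.25 ± 0.13 (adjusted p = 0.346). In the annotation, 2.74% of the exon bases of Ccl25 overlap Elavl1 on the opposite strand. Elavl1 had 6187 counts in WT and 7392 and 5710 in FGR. The strand setting is not given, and the part of Elavl1 reads in the Ccl25 values was not tested. Ccr9 stood at 1.41 CPM in WT against 1.09 and 1.38 CPM in FGR, with a log2 fold change of -0.20 ± 0.30 (adjusted p = 0.782). Its exons overlap other genes on both strands, and 20.1% of its 50-base stretches occur in another gene.

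Ccl17, a dendritic cell ligand of Ccr4, had 11 counts in WT and 25 and 30 in FGR. FGR values were higher, at 0.431 and 0.656 CPM against 0.204 CPM, with a log2 fold change of 1.38 ± 0.61 (adjusted p = 0.241). Ccl22, the other ligand of Ccr4, had 0 counts in WT and 2 in each FGR library, and Ccr4 had a single count, in FGR replicate 1. Ccl22, Cx3cl1 and Ccl17 are neighbours on chromosome 8, yet Cx3cl1 had 4998 counts in WT.

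Of the ligands that organise lymphoid tissue, Ccl21a had 26 counts in WT and 21 and 13 in FGR (adjusted p = 0.650). Ccl21b had 43 counts in WT and 23 and 28 in FGR (adjusted p = 0.465). Both were lower in each FGR library, and so were their copies Gm10591, Gm13304 and Gm21541. The 5 genes together had 313 counts in WT and 198 and 195 in FGR. Their log2 fold change of -0.60 ± 0.18 did not pass the test (adjusted p = 0.0805), but it passed with library size scaling (adjusted p = 0.0497) and with no filter (adjusted p = 0.0128).

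Ccl19, the second ligand of Ccr7, had 30 counts in WT and 16 and 31 in FGR (log2 fold change -0.26, adjusted p = 0.860). Summed with its copies it had 35 counts in WT and 38 and 33 in FGR, which turned the sign (log2 fold change 0.08, adjusted p = 0.947). Cxcl13, the B cell attractant, had 23 counts in WT and 11 and 15 in FGR (adjusted p = 0.592). Its receptor Cxcr5 had 29 counts in WT and 29 and 11 in FGR (adjusted p = 0.691). Cxcl17, a mucosal chemokine, had 10 counts in WT and 8 in each FGR library (adjusted p = 0.917). None of these 4 genes passed the test.

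The 12 inflammatory CC ligands, which act on CC receptors of leukocytes, together stood at 4.37 CPM in WT against 2.81 and 3.43 CPM in FGR. Of the 7 tested, 0 were called and their median log2 fold change was -0.35. Both FGR libraries lay below WT for 6 of the 7, against 38.2% of all tested genes. Ccl9, a macrophage-derived ligand of Ccr1, had the smallest p of the group, with 76 counts (1.41 CPM) in WT and 54 (0.931 CPM) and 33 (0.722 CPM) in FGR. WT was the highest of the 3 libraries, and the log2 fold change of -0.76 ± 0.32 did not pass the test (adjusted p = 0.224).

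Ccl24, an eosinophil attractant also made by macrophages, had 29 counts in WT and 6 and 22 in FGR (adjusted p = 0.525). Its FGR libraries differed 4.65-fold from each other. Ccl6 had 40 counts in WT and 27 and 31 in FGR, and Ccl12, a ligand of Ccr2, had 25 in WT and 26 and 20 in FGR. The monocyte attractant Ccl2 had 22 counts in WT and 16 and 17 in FGR, and the related Ccl7 had 18 in WT and 14 and 16 in FGR. Ccl3, a microglial and macrophage ligand of Ccr1, had 15 counts in WT and 12 in each FGR library. Adjusted p-values of these 5 ligands ran from 0.696 for Ccl6 to 0.966 for Ccl12.

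Ligands of Cxcr2, which draw neutrophils, were scarce. Cxcl5 had 19 counts in WT and 19 and 6 in FGR (adjusted p = 0.729), and Cxcl1 had 11 in WT and 10 and 8 in FGR (adjusted p = 0.921). Of the interferon-induced ligands of Cxcr3, Cxcl11 alone had enough counts to test. It had 21 counts in WT and 13 and 19 in FGR (adjusted p = 0.849), and 40.4% of its 50-base stretches occur in another gene. Cxcr3 itself, a receptor of activated T cells, had 11 counts in WT and 3 and 2 in FGR. Both FGR values were lower, but it passed the filter through the WT library alone, and its log2 fold change of -2.03 ± 1.07 did not pass the test (adjusted p = 0.338).

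The myeloid receptor Ccr1, which binds Ccl3 and Ccl9, lay lower in both FGR libraries. It had 88 counts (1.63 CPM) in WT and 33 (0.569 CPM) and 62 (1.36 CPM) in FGR. Its log2 fold change of -0.80 ± 0.40 did not pass the test (adjusted p = 0.306), and it was -0.27 without FGR replicate 1 and -1.52 without FGR replicate 2. The lowest value was that of FGR replicate 1. Per 100 counts of Csf1r, a microglia and macrophage gene, Ccr1 had 4.09 in WT and 2.04 and 4.42 in FGR. On this scale only FGR replicate 1 lay below WT. The monocyte receptor Ccr2 had 10 counts in WT and 12 and 11 in FGR (adjusted p = 0.909). Xcr1, the receptor of cross-presenting dendritic cells, had 4 counts in WT and 9 and 15 in FGR (adjusted p = 0.431), and it passed the filter through FGR replicate 2 alone.

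Among the atypical receptors, Ackr2, which clears inflammatory CC ligands, had the smallest p of all members. It had 48 counts (0.892 CPM) in WT and 23 (0.397 CPM) and 8 (0.175 CPM) in FGR. Both FGR libraries were lower, and they differed 2.27-fold from each other. The log2 fold change of -1.59 ± 0.51 had an interval from -2.68 to -0.50, and the adjusted p of 0.0983 missed the threshold. With no filter on low counts Ackr2 passed, as the single member called lower. That fit, which pooled the spread over all genes, called 2057 genes against 1087 in the main fit.

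Ackr4, the scavenger of Ccl19, Ccl21 and Ccl25, stood at 2.79 CPM in WT against 1.97 and 2.10 CPM in FGR. The FGR libraries lay close together below WT, with a log2 fold change of -0.46 ± 0.22 (adjusted p = 0.291). Ackr1, known from venous endothelium and red cells, stood at 14.2 CPM in WT against 15.6 and 14.2 CPM in FGR, with a log2 fold change of 0.07 ± 0.13 (adjusted p = 0.849). In the annotation, 25.7% of the exon bases of Ackr1 also belong to Cadm3, a neuronal adhesion gene on the same strand with 14742 counts in WT and 15128 and 11172 in FGR. Ackr1 had 5.18 counts per 100 counts of Cadm3 in WT and 5.96 and 5.80 in FGR, so the level of Ackr1 may hold reads of its neighbour, which was not tested. Ccrl2, which presents chemerin, had 20 counts in WT and 25 and 19 in FGR (adjusted p = 0.902).

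The other 21 members, 14 ligands and 7 receptors, had at most 9 counts in any library and were not tested. Of these, 6 had 0 counts in all libraries: Ccl8, Cxcl15, Cxcl9, Ccr3, Ccr8 and Cxcr1. A count of 0 allows up to 0.0567 CPM in WT against 0.0513 and 0.0649 CPM in FGR before TMM scaling, which covers counting error only. Ccr7, Ccl20, Cxcl2, Ccl26, Ccl4 and Xcl1 had 1 to 4 counts in WT and 0 in both FGR libraries. At such counts no difference was detectable. The interferon-induced ligand Cxcl10 had 6 counts in WT and 4 and 2 in FGR, and the T cell attractant Ccl5 had 5 in WT and 4 in each FGR library.

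Members were also described by position and promoter. The 14 members on chromosome 11, most of them in the inflammatory CC cluster, had mean levels from 0 to 2.47 CPM. The 11 on chromosome 5, with the Cxcl clusters, had mean levels from 0 to 0.374 CPM. For 38 members the RefSeq promoter of GRCm38.p6 (250 bases before to 50 after the start) begins in an annotated transcript. Its median number of CpG pairs was 9 in 12 members with a mean of at least 1 CPM and 3 in 26 members below that. Both ranges began at 1, so the groups overlapped.

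Genes that act with the chemokines were described from 4 fixed lists. Of 7 tested chemokine-like genes outside the symbol rule, 1 was called lower and 0 higher, against 2.59% and 1.66% of all tested genes. All 7 lay below WT in both FGR libraries, against 38.2% of all tested genes. The called gene was Pf4, a platelet and border macrophage chemokine, at 3.96 CPM in WT against 1.48 and 2.49 CPM in FGR. It fell, with a log2 fold change of -1.01 ± 0.26 (adjusted p = 0.0427). It did not pass in a robust fit (adjusted p = 0.0569) or among genes with a mean of at least 1 CPM (adjusted p = 0.134), and DESeq2 gave it no adjusted p. The most abundant gene of this list, the cytokine Mif, stood at 65.6 CPM in WT against 62.7 and 65.1 CPM in FGR (adjusted p = 0.820).

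The 26 tested genes of chemokine receptor signalling had a median log2 fold change of 0.04. Gng2, a G protein subunit and the most abundant gene of the list, stood at 400 CPM in WT against 470 and 430 CPM in FGR (adjusted p = 0.396).

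None of 12 genes of chemokine cleavage, shedding and presentation was called by edgeR, against 4.25% of all tested genes. An unadjusted p under 0.05 was found for 5 of the 12, all lower in FGR, against 18.3% of all tested genes. Over the 12 genes the median log2 fold change was -0.23. The most abundant, the proteoglycan Sdc3, stood at 643 CPM in WT against 600 and 578 CPM in FGR (adjusted p = 0.565). Of 19 tested inducers and regulators of chemokine transcription, 0 were called by edgeR and 3 had an unadjusted p under 0.05, beside the same shares. Over these 19 the median log2 fold change was -0.14. Nfkb1, an NF-kB subunit and the most abundant of them, stood at 22.3 CPM in WT against 19.1 and 19.8 CPM in FGR (adjusted p = 0.402). The cytokines Tnf and Il1b had at most 10 counts in any library.

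Markers of cells that make or sense chemokines also differed between the libraries. For this and the later marker lists, the shares over all tested genes were 2.59% called lower and 1.66% called higher. An unadjusted p under 0.05 was found for 18.3% of all tested genes. Summed microglial markers stood at 186 CPM in WT against 130 and 142 CPM in FGR, and 5 of 14 were called lower. Border macrophage markers stood at 86.1 CPM in WT against 37.5 and 58.6 CPM in FGR, with 3 of 9 called lower, Mrc1, F13a1 and Pf4. Meningeal fibroblast markers stood at 979 CPM in WT against 397 and 630 CPM in FGR, with 8 of 11 called lower. All 3 lists were lowest in FGR replicate 1. Of the 39 tested members, 26 were lower in FGR replicate 1 than in FGR replicate 2, among them Cxcl12, Ccl24 and Ccr1. The other 13 were higher, among them Ccl9, Ackr2 and Ccl27b. The matching share of all tested genes was not computed, so this split is not read as a trait of the members. Per 100 counts of the fibroblast gene Col3a1, Cxcl12 had 10.7 in WT and 18.9 and 17.8 in FGR. Ccl24 had 1.97 per 100 counts of the border macrophage gene Mrc1 in WT and 1.21 and 3.44 in FGR. The part of these cells in the members' values was not tested. Cx3cr1 and Pf4 also belong to the marker lists, so their values are not separate from them.

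Endothelial markers stood at 201 CPM in WT against 155 and 159 CPM in FGR, with 4 of 11 called lower. Mural cell markers stood at 193 CPM in WT against 124 CPM in each FGR library, with 3 of 8 called lower. Erythroid markers stood at 210 CPM in WT against 308 and 339 CPM in FGR, with 5 of 6 tested called higher. Neuronal markers, from the cells that make Cx3cl1, stood at 4942 CPM in WT against 4828 and 4663 CPM in FGR, with 0 of 8 called by edgeR and 2 at an unadjusted p under 0.05.

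Markers of blood leukocytes were mostly scarce. Neutrophil markers summed to 1.62 CPM in WT against 0.879 and 0.744 CPM in FGR, with Elane and Ly6g at 0 counts in all libraries. T and natural killer cell markers summed to 9.03 CPM in WT against 7.24 and 6.85 CPM in FGR, most of it from Lck, with Cd3g at 0 counts in all libraries. Monocyte and dendritic cell markers summed to 5.28 CPM in WT against 4.45 and 4.48 CPM in FGR. B cell markers summed to 35.9 CPM in WT against 47.6 and 36.1 CPM in FGR, most of it from Pax5, a gene that the developing midbrain also expresses. None of these 4 lists had a gene called by edgeR, and 2 genes in all had an unadjusted p under 0.05, 1 lower and 1 higher in FGR.

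**Figure D4:**
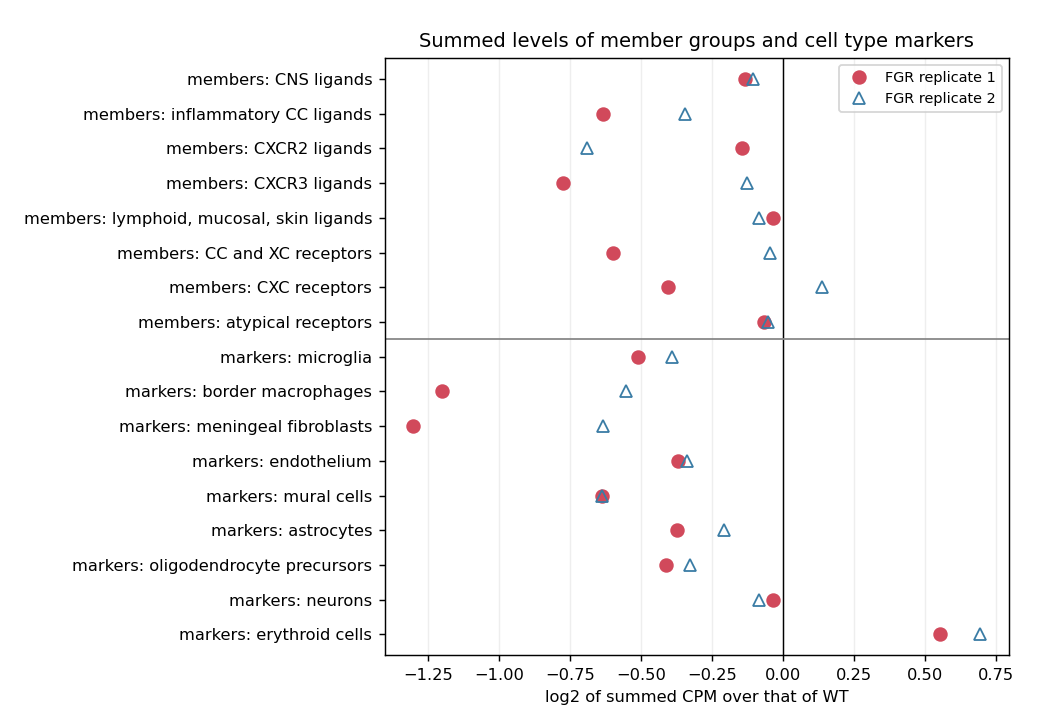
Log2 ratio of the summed CPM in each FGR library to that in WT, for the member groups (upper block) and cell type marker lists (lower block). Red circles are FGR replicate 1 and open blue triangles FGR replicate 2, and the vertical line at 0 marks the WT level. Border macrophage and meningeal fibroblast markers lie farthest below WT in FGR replicate 1, and erythroid markers lie above it in both.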

How the data were processed

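Raw read counts per gene were used as the authors deposited them, in 1 headerless table per library, with gene identifier, symbol and length. The authors also deposited RPKM, which the count, gene length and library total gave back to within 0.0005 percent, and it was not used further. HISAT2 appears in the submitters' processing notes. Its version, the build, the annotation, the strand setting and the handling of multi-mapped reads remain not given in the sources used here. Lengths equalled the exon union of GENCODE M21 for 44365 of 49326 matched genes and for 56 of 60 members, so that release gave positions and copies.

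R 4.3.3 and edgeR 4.0.16 were used to test the counts, with filterByExpr (minimum count 10), TMM, the two-sided quasi-likelihood F test and Benjamini-Hochberg adjustment over 25561 genes. WT has no replicate, so the spread came from the FGR pair (1 residual degree of freedom) and was taken to hold for WT too. A standard error is the log2 fold change over the root of F. The procedure was tested on simulated data. Alternatives used DESeq2 1.42.0, limma 3.58.1 (voom), other scalings and filters, a robust fit, and each FGR library left out. Members with a mean of at least 1 CPM are named with full values, other tested members with counts. In 4 lists of related genes, called genes and the most abundant one are named. Some genes that this rule names are not reported here. Members and lists were chosen with earlier results of these data known. Ccl27b was put in its role group after the files had been seen. Columns of other samples numbered 0.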

Additional observations from a re-analysis of the deposited data

How the results depend on the processing

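With no filter on low counts, 1 member was called higher in FGR (Ccl28, log2 fold change 1.00) and 1 lower (Ackr2). With genes that share sequence summed, in sets chosen after the data had been seen, edgeR called the Ccl27 sum lower, with or without Gm20878. Such a sum is not a member. Both versions hold the non-member Gm13306, which edgeR called lower alone (adjusted p = 0.00400), whereas Ccl27a and Ccl27b alone were not called. The other scalings, filters and tools called 0 members, with 0 (DESeq2) to 10 (library size scaling) at an unadjusted p under 0.05. Members too low to test numbered 6 with no filter and in DESeq2, and 44 with a mean of at least 1 CPM. With FGR replicate 1 or 2 left out, log2 fold changes ranged from -0.0017 to 0.13 for Ackr1, from -0.34 to 0.13 for Ackr3, from -0.059 to 0.20 for Cxcl14 and from -0.33 to 0.28 for Cxcr4, and the sign turned without FGR replicate 1. The cause was not tested. The median over members ranged from -0.42 to -0.13. Over 16 named members and 144 alternatives, 139 kept direction and side of the threshold. With 1 library left in each group, no test was run.

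No paired analysis was possible because the labels give no pairs and WT has only 1 library. With 1 WT library its own spread is unknown, and most leukocyte chemokines had too few counts for a difference to be detected.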
